A study of Mus musculus with 12 samples.

Results

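Axon guidance genes were followed in the RNA of a myelin-enriched membrane fraction of mouse brain: the netrins, slits, ephrins and semaphorins, which are the classical guidance cues, and their receptors. Members were taken by symbol from the deposited table, which gave 71 of 21937 genes: 9 netrins and netrin receptors, 8 ephrins, 14 Eph receptors, 7 slits and Robo receptors, 20 semaphorins, 11 plexins and neuropilins, and 2 genes that only share the start of a symbol. Those 2 are Unc50, which encodes a membrane protein of the Golgi, and Unc5cl, and they are not guidance genes. All samples came from brains of male wild type (WT) c57Bl6/N mice, an inbred strain, and no group carried an altered allele or was given an agent. There were 12 samples, 3 at each of 4 ages: P18 and P75 (18 and 75 days after birth), 6 months and 24 months. Myelination is at its height around P18, and P75 mice are young adults.

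Guidance cues steer growing axons and migrating cells by attraction or repulsion, and their receptors act on the cytoskeleton through small GTPases and kinases. Ephrins are bound to the cell surface and signal on contact with Eph receptors, while netrins and slits are secreted and semaphorins are either secreted or anchored in the membrane. In white matter the same families guide oligodendrocyte precursors, and several ephrins and semaphorins that mature oligodendrocytes make, among them ephrin-B3, Sema4D, Sema5A and Sema6A, act on axons or on glial cells in the adult brain.

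Each sample held 20299052 to 27214385 recovered reads, and values are read counts that the authors normalised between samples. Mbp, the most abundant myelin mRNA, alone took 4.76 to 8.48% of the values at the later ages and 9.47 to 20.8% at P18. The labels do not say whether the numbered samples of an age were separate animals, so the tests speak of the spread among these samples only. In such a bulk fraction, fewer cells of a type and less RNA per cell cannot be told apart. The fraction held oligodendrocyte RNA and that of other cells, and every marker looked at was above 0 at each age. The summed value of 20 mature oligodendrocyte markers was 290248 to 440811 after P18 and 379713 to 676946 at P18. That of 18 neuron markers was 274307 to 328422 after P18 and 265874 to 329924 at P18, while single neuron markers changed in both directions.

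Guidance genes mostly rose up to 6 months of age. Between 6 and 24 months calls were few among them, as among all genes tested. At P75 against P18, 36 of the 69 tested members rose and 4 fell, against 21.7% of all 14987 genes tested higher and 18.7% lower (limma, Benjamini-Hochberg adjusted p under 0.05 over all genes). At 6 months against P75, 47 rose and 1 fell, beside 27.1% of all genes higher and 25.4% lower. At 24 months against 6 months 5 rose and 4 fell (7.25% and 5.80% of the members), beside 10.8% and 8.34% of all genes. Across the whole span, 24 months against P18, 56 rose and 3 fell, beside 32% and 30.5% of all genes. Of those 56, 31 rose by at least 1 on the log2 scale, which 14.8% of all genes did. The 3 that fell were Sema6a, Plxnb3 and Robo4.

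The members' median log2 fold change was 0.40 at P75 against P18, 0.54 at 6 months against P75, 0.06 at 24 against 6 months and 0.96 at 24 months against P18, beside 0.02, 0.00, 0.03 and -0.01 over all genes tested. Over the 4 ages, 64 of the 69 members differed in the moderated F test, beside 77.4% of all genes. Of the tested members, 26 rose at both P75 and 6 months, and 18 rose at 6 months after no call at P75. Another 10 rose at P75 with no call at 6 months, and 3 fell at P75 and rose at 6 months. These courses were not counted over all genes, so whether they are particular to the members cannot be told. The mean was highest at 24 months for 37 members (53.6%), at 6 months for 26 (37.7%) and at P18 for 6 (8.70%). Among all genes tested these shares were 24.9%, 22.4% and 32.7%. Summed over the 71 members, the share of all values averaged 0.108% (SD 0.011) for the P18 samples, 0.143% (SD 0.00073) for P75, 0.202% (SD 0.023) for 6 months and 0.204% (SD 0.019) for 24 months, with n = 3 each.

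**Figure D1:**
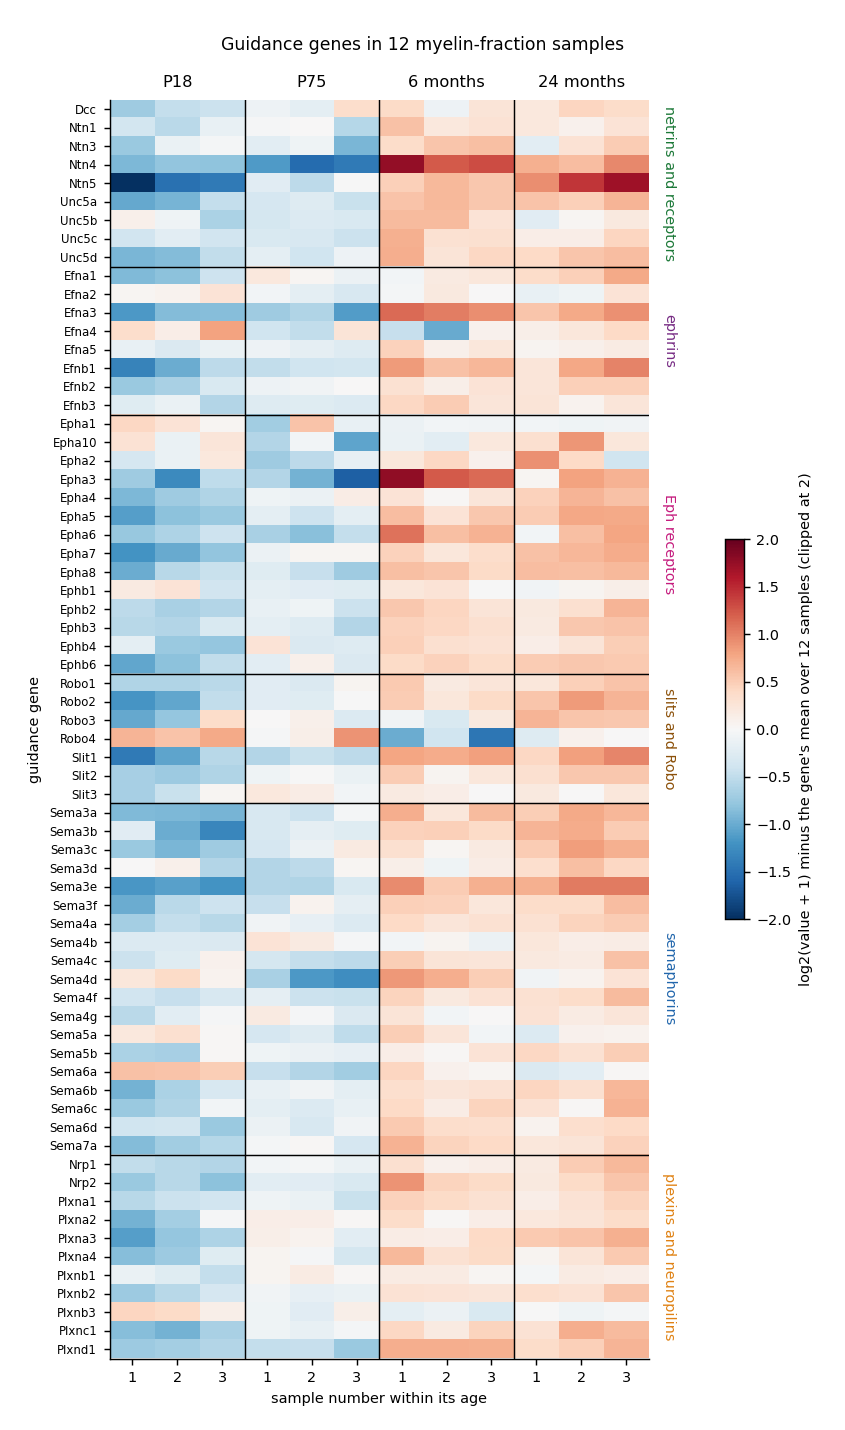
Each row is a guidance gene and each column a sample, with colour showing log2(normalised read count + 1) minus the gene's mean over the 12 samples. Most rows are blue at P18 and red at 6 and 24 months, and Sema6a, Plxnb3 and Robo4 are among the few that are red at P18.

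Members of the set are longer than most genes, with a median transcript of 4797 bases against 3184 over the 13506 tested genes whose length was known. With the trend of fold change on length removed, 31 members were higher and 5 lower at P75 against P18. Of the 13506 genes in that fit, 2770 were higher and 2970 lower. At 6 months against P75 the counts were 40 and 3 for members, and 3439 and 3246 for all genes. At 24 months against P18 they were 53 and 4 for members, and 3974 and 4672 for all genes. Markers of other cells also changed in sum over these ages. The lowest and highest sums of 15 microglial markers were 8410.1 and 9852 (P18), 12994 and 14692 (P75), 14797 and 16740.2 (6 months), and 23251 and 28859 (24 months). Those of 14 markers of mural cells and fibroblasts were 1632 and 2123, 2345 and 2639.6, 3344 and 3528, and 3219.6 and 3869 at the same ages. For 12 markers of immature neurons they were 78082 and 84824, 68414 and 77298, 47818 and 54824, and 50083.8 and 51404. Counted by gene, 11 of 15 microglial markers rose at P75 (73.3%), where the median log2 fold change of the list was 0.45. Of 10 tested markers of olfactory neurons and bulb, 5 rose (50%), with a median of 0.56. Among all genes tested, 21.7% rose at that step. At 6 months against P75, where 47 members rose, 11 of 18 neuron markers rose and 4 fell, with a median of 0.40. These were 61.1% and 22.2% of them, beside 27.1% and 25.4% of all genes tested. The 3 neuron markers that rose by at least 1 were Syt1 (2.34 ± 0.13, adjusted p = 7.34e-09), Slc17a7 (1.41 ± 0.16, adjusted p = 3.27e-06) and Grin1 (1.20 ± 0.14, adjusted p = 4.76e-06). The lowest log2 fold change of the list was -0.68. Its summed value did not rise, with 292070 to 328422 at P75 and 293999 to 305158 at 6 months. Of 15 markers of oligodendrocyte precursors, 10 rose and 3 fell at that step (66.7% and 20%), with a median of 0.34. The part of these cells in the members' course was not tested.

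Levels of different genes were compared per kb of the longest coding transcript. Efnb3, which encodes ephrin-B3, had the highest level of all guidance genes, with means of 659, 686, 1074 and 935 normalised reads per kb at the 4 ages. Sema7a, a semaphorin held in the membrane by a lipid anchor, followed with 266, 402, 623 and 539 per kb. Epha4, a receptor that binds ephrins of both classes, including ephrin-B3, came next with 179.8, 295, 337 and 445 per kb. The transmembrane semaphorins Sema6b and Sema6d averaged 255 and 247 per kb over the 12 samples, and Ephb1, Nrp1 and Ephb6 246, 219 and 217. The least abundant tested member was Efna4, with a mean of 8.67 normalised reads.

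**Figure D2:**
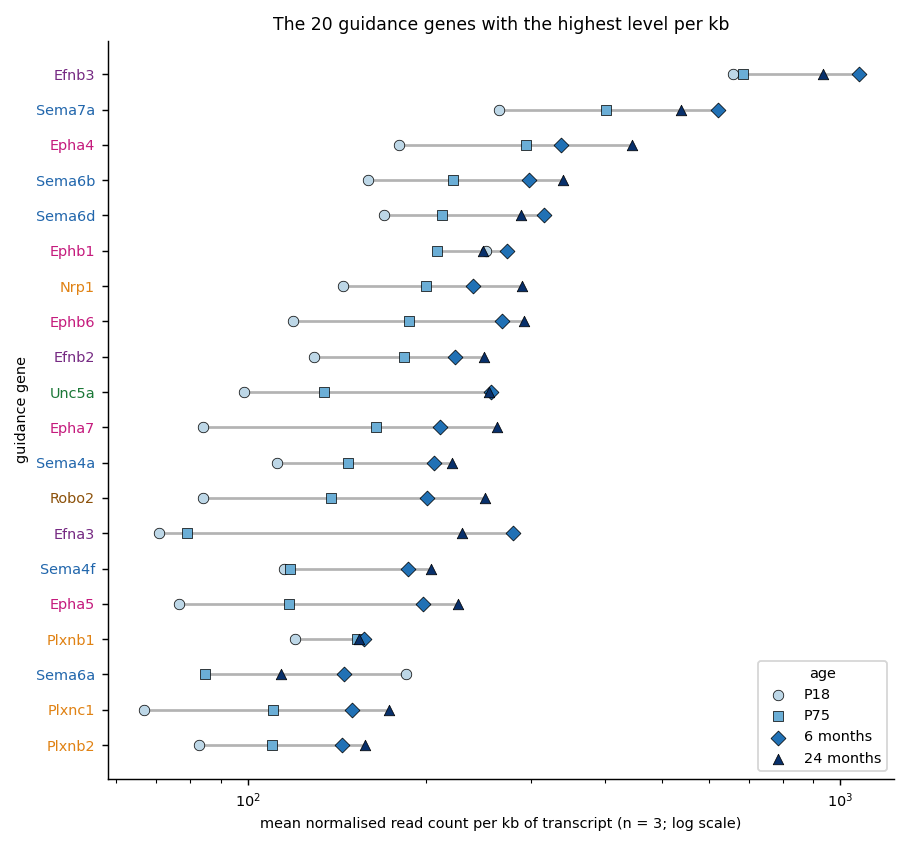
Mean normalised read count per kb of transcript (log scale) at each age for the 20 guidance genes with the highest level, coloured by role as in the plots of fold changes. Efnb3 stands above the rest at every age, and Sema6a is highest at P18.

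Among the netrins and their receptors, 4 of 9 rose at P75, 8 rose at 6 months, and 7 were higher at 24 months than at P18. These were 44.4%, 88.9% and 77.8% of them, beside 21.7%, 27.1% and 32% of all genes. Ntn1, the founding netrin, which attracts axons and is also found at the paranodal junctions of myelinated axons, had 162, 144 and 188 normalised reads at P18, 205, 209 and 139 at P75, 313, 241 and 254 at 6 months, and 242, 222 and 251 at 24 months. The samples of P18 and P75 overlapped and those of 6 months all lay above them, and Ntn1 rose at 6 months by 0.56 ± 0.16 (SE) on the log2 scale (adjusted p = 0.00703). Dcc, the receptor for attraction by netrin-1, had 183, 216 and 223 normalised reads at P18, 279.6, 263 and 385 at P75, 392, 279 and 359 at 6 months, and 349, 404 and 386 at 24 months. It rose at P75 by 0.56 ± 0.15 (adjusted p = 0.00699) with no overlap with P18, and its 6-month samples overlapped those of P75.

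Ntn4, a netrin of basement membranes that binds laminin, showed the largest rise of any member at 6 months. It had 17.8, 19.2 and 19.1 normalised reads at P18, 15.03, 11.1 and 12.2 at P75, 118, 80.8 and 85.6 at 6 months, and 56.5, 52.98 and 67.6 at 24 months. The 6-month samples lay far above all samples of P18 and P75, and the log2 fold change against P75 was 2.79 ± 0.21 (adjusted p = 8.01e-08). Ntn5 had 3.56, 5.65 and 6.03 normalised reads at P18, 15.03, 12.1 and 17.7 at P75, 25.2, 28.4 and 26.3 at 6 months, and 34.7, 49.7 and 60.2 at 24 months, so each age lay above the age before it, and its log2 fold change at 24 months against P18 was 3.01 ± 0.28 (adjusted p = 1.04e-07). These 2 netrins had mean values under 50, and they were named after their values were seen. Exons of Ntn5 overlap those of Sec1 on the opposite strand over 519 bases, and whether the authors counted by strand is not given in the sources used here, so its level is uncertain.

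The Unc5 receptors, which mediate repulsion by netrin, were all higher at 6 months than at P75. Unc5a, the most abundant of them, had 334, 359 and 489 normalised reads at P18, 538, 569 and 502 at P75, 1014, 1076 and 991 at 6 months, and 1019, 947 and 1091 at 24 months. Its 3 ages up to 6 months did not overlap, and it rose at P75 by 0.46 ± 0.12 (adjusted p = 0.00534) and at 6 months by 0.94 ± 0.12 (adjusted p = 9.19e-06). Unc5d had 296, 305 and 395 normalised reads at P18, 489, 424 and 518 at P75, 921, 665 and 745 at 6 months, and 737, 819.6 and 859.9 at 24 months. It rose at 24 months against P18 by 1.29 ± 0.13 (adjusted p = 3.44e-07). Unc5c had a log2 fold change of -0.02 at P75 against P18 (adjusted p = 0.896) and rose at 6 months by 0.80 ± 0.12 (adjusted p = 3.76e-05). Unc5b, which is also known from blood vessels, had 541, 472 and 324 normalised reads at P18, 393, 417 and 406 at P75, 779.9, 779 and 610.1 at 6 months, and 429.9, 515 and 575 at 24 months. Its 6-month samples were above all others, and it rose at that age by 0.82 ± 0.16 (adjusted p = 0.000389).

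Of the 8 ephrins, 3 rose at P75, 5 rose at 6 months and 6 were higher at 24 months than at P18. As shares these are 37.5%, 62.5% and 75%, beside 21.7%, 27.1% and 32% of all genes. Efnb1 at P75 (adjusted p = 0.0427) lost its call in 14 of 23 refits, edgeR (0.0928) and DESeq2 (0.0669) among them. Efnb3, whose protein in myelin is known to restrain axon growth through Epha4, had 2191, 2381 and 1726 normalised reads at P18, 2181, 2209 and 2160.1 at P75, 3476, 3701 and 3078 at 6 months, and 3105, 2743 and 3079.7 at 24 months. P18 and P75 overlapped, all samples of 6 months were above both, and the rise at 6 months was 0.64 ± 0.11 (adjusted p = 0.000128). Efnb2, a transmembrane ephrin, had 544, 579.6 and 736 normalised reads at P18, 847, 869 and 918 at P75, 1123, 993 and 1106 at 6 months, and 1074, 1267 and 1264 at 24 months. It had no overlap between P18 and P75, rising by 0.51 ± 0.11 (adjusted p = 0.00136), and was higher at 24 months than at P18 by 0.96 ± 0.11 (adjusted p = 1.02e-06). Efnb1 rose at 6 months by 1.12 ± 0.20 (adjusted p = 0.000206), with means of 209 ± 20.4 at 6 months and 95.00 ± 4.28 at P75 (SD, n = 3 each).

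The A-class ephrins, which have a lipid anchor, differed among themselves. Efna3 had 145, 176 and 179.8 normalised reads at P18, 197, 213 and 149 at P75, 711, 658 and 616 at 6 months, and 475, 549 and 608 at 24 months. Its P18 and P75 samples overlapped, and at 6 months it rose by 1.83 ± 0.14 (adjusted p = 8.40e-08), with no overlap. Efna1, a ligand of EphA receptors that repels axons, had 57.04, 59.9 and 79.3 normalised reads at P18, 123, 108 and 97.3 at P75, 102, 121 and 125 at 6 months, and 138, 148 and 180.5 at 24 months. At P75 it rose by 0.75 ± 0.16 (adjusted p = 0.00162) and its samples of P75 and 6 months overlapped. Efna1, Efna3 and Efna4 lie close together on mouse chromosome 3 (GRCm38, GENCODE vM21 annotation, 3:89271733-89281142, 3:89313899-89322965 and 3:89333390-89338028, minus strand), yet Efna4 had 3.55 to 15.1 in all 12 samples and no call in any comparison. Efna2 had 163 ± 26.7 at 24 months and 175 ± 16.4 at P18, with overlapping samples.

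Among the 14 Eph receptors, 5 rose at P75, 9 rose at 6 months and 10 were higher at 24 months than at P18. That is 35.7%, 64.3% and 71.4%, beside 21.7%, 27.1% and 32% of all genes. Ephb2 at P75 (adjusted p = 0.0434) lost its call in 14 of 23 refits, edgeR (0.0556) and DESeq2 (0.0521) among them. Epha4 (chromosome 1, 77367185 to 77515088, minus strand) had 1012, 1157 and 1243 normalised reads at P18, 1784, 1729 and 2086 at P75, 2269, 1911 and 2226 at 6 months, and 2593, 3033 and 2817 at 24 months. No sample of P75 overlapped P18 and no sample of 24 months overlapped 6 months, and it rose at P75 by 0.71 ± 0.10 (adjusted p = 6.01e-05) and over the whole span by 1.31 ± 0.10 (adjusted p = 1.78e-08). Epha7, another receptor of A-class ephrins, had 491, 558 and 649.9 normalised reads at P18, 1035, 1148 and 1144 at P75, 1540.4, 1307 and 1426 at 6 months, and 1677, 1772 and 1873 at 24 months. Its 4 ages were free of overlap in rising order, and the log2 fold changes were 0.98 ± 0.10 at P75 (adjusted p = 3.26e-06) and 1.65 ± 0.10 at 24 months against P18 (adjusted p = 1.40e-09). Epha5 had 481, 585 and 614 normalised reads at P18, 906, 770.5 and 899 at P75, 1591, 1253 and 1501 at 6 months, and 1467, 1760.2 and 1742 at 24 months. It rose at both P75, by 0.62 ± 0.12 (adjusted p = 0.000529), and 6 months, by 0.75 ± 0.12 (adjusted p = 5.77e-05).

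Other A-class receptors moved at 6 months. Epha6 had 49.9, 55.4 and 63.3 normalised reads at P18, 54.1, 47.3 and 60.8 at P75, 182, 129.6 and 138 at 6 months, and 82.2, 129.8 and 148 at 24 months, with P18 and P75 overlapping and 6 months above them by 1.45 ± 0.20 (adjusted p = 2.52e-05). Epha8 rose by 0.99 ± 0.16 at that age (adjusted p = 8.28e-05). Epha3, whose mean was under 50, had 15.4, 10.2 and 18.1 normalised reads at P18, 17.04, 12.98 and 7.74 at P75, 90.99, 62.1 and 58.4 at 6 months, and 26.8, 46.5 and 42.6 at 24 months. It was low at P18 and P75 and rose at 6 months by 2.43 ± 0.31 (adjusted p = 9.81e-06). Like Ntn4 and Ntn5, Epha3 was named after its values were seen.

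The B-class receptors followed several courses. Ephb6, which lacks kinase activity, had 372, 432 and 542 normalised reads at P18, 662, 823 and 623 at P75, 1000.1, 1050.0 and 985 at 6 months, and 1084, 1113 and 1104 at 24 months. It rose at P75 by 0.65 ± 0.12 (adjusted p = 0.000542) and at 6 months by 0.53 ± 0.12 (adjusted p = 0.0017). Ephb1, the most abundant of the class per kb, had 1289, 1367 and 872 normalised reads at P18, 992, 969 and 961 at P75, 1332, 1371 and 1134 at 6 months, and 1084, 1174 and 1227 at 24 months. Its P18 samples spanned nearly the whole range of the other ages, and its means were 1162 ± 72.6 at 24 months and 1176 ± 266 at P18 (SD, n = 3 each). Ephb1 was called higher at 6 months than at P75 (adjusted p = 0.0208). That call was lost in 5 of 23 refits, removal of the length trend (0.141) among them. Ephb2 and Ephb3 rose at 6 months by 0.63 ± 0.14 (adjusted p = 0.00108) and 0.74 ± 0.13 (adjusted p = 0.000214). Epha1, Epha2 and Epha10 had mean values of 18.9, 14.5 and 13.2. The 5 members that did not pass the F test over the 4 ages were Epha1, Epha2, Ephb1 (adjusted p = 0.0748), Efna2 and Efna4.

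Semaphorins were the largest family, with 19 of 20 tested. Of these, 10 rose and 3 fell at P75 (52.6% and 15.8%), beside 21.7% and 18.7% of all genes. At 6 months 14 rose (73.7%), beside 27.1%. At 24 months 16 were higher and 1 was lower than at P18 (84.2% and 5.26%), beside 32% and 30.5%. With the length trend removed, 2 were lower over that span. At P75, Sema3f (adjusted p = 0.0433) lost its call in 13 of 23 refits and Sema3b (0.0356) in 10 of 23. The secreted class 3 semaphorins, which signal through neuropilins and plexins, included the semaphorin with the largest rise over the whole span. Sema3e, which differs from its class in binding plexin-D1 directly, had 188, 198 and 184 normalised reads at P18, 282, 276 and 339 at P75, 809, 600.0 and 687 at 6 months, and 691, 864 and 868 at 24 months. P18, P75 and 6 months did not overlap, and Sema3e rose by 0.65 ± 0.12 at P75 (adjusted p = 0.00063), by 1.22 ± 0.12 at 6 months (adjusted p = 1.30e-06) and by 2.08 ± 0.12 over the whole span (adjusted p = 9.97e-10). Sema3a, a repellent of axons and of oligodendrocyte precursors, had 171, 168 and 165 normalised reads at P18, 254, 234 and 307 at P75, 522, 370.1 and 492 at 6 months, and 446, 535 and 499.9 at 24 months. Both steps brought a rise, at P75 by 0.64 ± 0.13 (adjusted p = 0.00114) and at 6 months by 0.79 ± 0.13 (adjusted p = 0.000127).

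Sema3c had 273, 242 and 279 normalised reads at P18, 364, 424 and 521 at P75, 574, 469.6 and 519 at 6 months, and 653, 819.6 and 752 at 24 months. The rise at P75 was 0.70 ± 0.13 (adjusted p = 0.000422), and its samples of P75 and 6 months overlapped. Sema3f, which attracts oligodendrocyte precursors, had 51.1, 70.05 and 76.3 normalised reads at P18, 74.2, 108 and 90.7 at P75, 144, 142 and 121 at 6 months, and 133, 132 and 158 at 24 months. Per kb its mean was 41.5 at 24 months, against 83.2 for Sema3a. It was higher at 24 months than at P18 by 1.10 ± 0.17 (adjusted p = 3.77e-05). Sema3a, Sema3c, Sema3d and Sema3e all lie on the plus strand of chromosome 5 between 12383385 and 17730268. Sema3d passed neither at P75 (-0.20, adjusted p = 0.386) nor at 6 months (0.41, adjusted p = 0.0619), and was higher at 24 months than at P18 by 0.61 ± 0.18 (adjusted p = 0.00712). Sema3g had 1.11 to 8.76 and was too low to be tested.

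Most membrane-bound semaphorins also rose. Sema7a had 782, 884 and 963 normalised reads at P18, 1388, 1458 and 1132 at P75, 2314, 1954 and 1892 at 6 months, and 1668, 1704 and 1962 at 24 months. Its P18, P75 and 6-month samples did not overlap, and it rose by 0.59 ± 0.11 at P75 (adjusted p = 0.000615) and by 0.63 ± 0.11 at 6 months (adjusted p = 0.000221). Sema6d, which binds plexin-A1, had 1173, 1188 and 919 normalised reads at P18, 1418, 1232 and 1463 at P75, 2216, 1962 and 1933 at 6 months, and 1619.7, 1943 and 2035 at 24 months. Its rise at 6 months was 0.57 ± 0.11 (adjusted p = 0.000541). Sema6b had 473, 589 and 728 normalised reads at P18, 825, 869.7 and 790.4 at P75, 1150.4, 1080.2 and 1115 at 6 months, and 1221, 1141 and 1449 at 24 months. It was higher at 24 months than at P18 by 1.10 ± 0.13 (adjusted p = 1.18e-06). Sema4f, reported to restrain the migration of oligodendrocyte precursors, had 472, 446 and 493 normalised reads at P18, 539, 454 and 449.9 at P75, 833, 706 and 749 at 6 months, and 755, 794 and 948 at 24 months. Its P18 and P75 samples overlapped and it rose at 6 months by 0.66 ± 0.11 (adjusted p = 7.86e-05). Sema4b rose at P75 (0.42 ± 0.10, adjusted p = 0.00348), and its log2 fold change at 6 months was -0.19 (adjusted p = 0.134).

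The 4 members that fell at P75 were Sema4d, Sema6a, Sema5a and Plxnb3, which are known to be made by cells of the oligodendrocyte lineage or, for Plxnb3, to be the receptor of Sema5A. Sema4d, an axon repellent that signals through plexin-B1 (chromosome 13, 51685529 to 51793747, minus strand), had 507, 568 and 453 normalised reads at P18, 277, 195 and 182 at P75, 794, 719.9 and 610.1 at 6 months, and 413, 454 and 522 at 24 months. The P75 samples were below those of every other age, and the log2 fold change was -1.24 ± 0.15 at P75 against P18 (adjusted p = 1.17e-05) and 1.71 ± 0.15 at 6 months against P75 (adjusted p = 3.36e-07). Sema6a, a ligand of A-type plexins, had 1300.0, 1280.2 and 1221 normalised reads at P18, 627, 578 and 534 at P75, 1169.9, 924 and 890.4 at 6 months, and 710.3, 748 and 884 at 24 months. It too was lowest at P75, where it fell (-1.13 ± 0.11, adjusted p = 1.93e-06), and it rose at 6 months by 0.77 ± 0.11 (adjusted p = 2.86e-05). At 24 months it was below P18, with a log2 fold change of -0.70 ± 0.11 (adjusted p = 3.61e-05). Sema5a, which inhibits axon growth, had 929, 1004 and 824 normalised reads at P18, 640.4, 675 and 565 at P75, 1133, 957 and 778 at 6 months, and 664, 856 and 843 at 24 months. No P75 sample overlapped P18, with a log2 fold change of -0.55 ± 0.13 (adjusted p = 0.0035), and at 6 months it rose by 0.59 ± 0.13 (adjusted p = 0.00136), so that 6 months and P18 overlapped.

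Plxnb3 (chromosome X, 73757090 to 73772514, plus strand) had 835, 803 and 674 normalised reads at P18, 584, 527 and 671 at P75, 539, 572 and 503 at 6 months, and 617, 581 and 602 at 24 months. It was the member of this group that did not rise at 6 months (-0.14, adjusted p = 0.285), and its 24-month samples were all below those of P18 (-0.36 ± 0.10, adjusted p = 0.00736). The call at P75 (-0.38 ± 0.10, adjusted p = 0.00896) was lost without P75 replicate 2 (adjusted p = 0.0524), and P75 replicate 3 lay within 3 normalised reads of the lowest P18 sample. Over the same step, 13 of 15 markers of newly formed oligodendrocytes fell and 1 rose. Their sums overlapped, with 90967 to 128942 at P75 and 67260 to 122609 at P18. Of 15 precursor markers 6 fell and 3 rose, with sums of 16708 to 17042 at P75 and 23518 to 24339.7 at P18. Of all genes tested, 18.7% were lower and 21.7% higher at this step. Mature oligodendrocyte markers were split, with 6 higher and 8 lower of 20. The part of these cells in the fall of the 4 members was not tested.

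**Figure D3:**
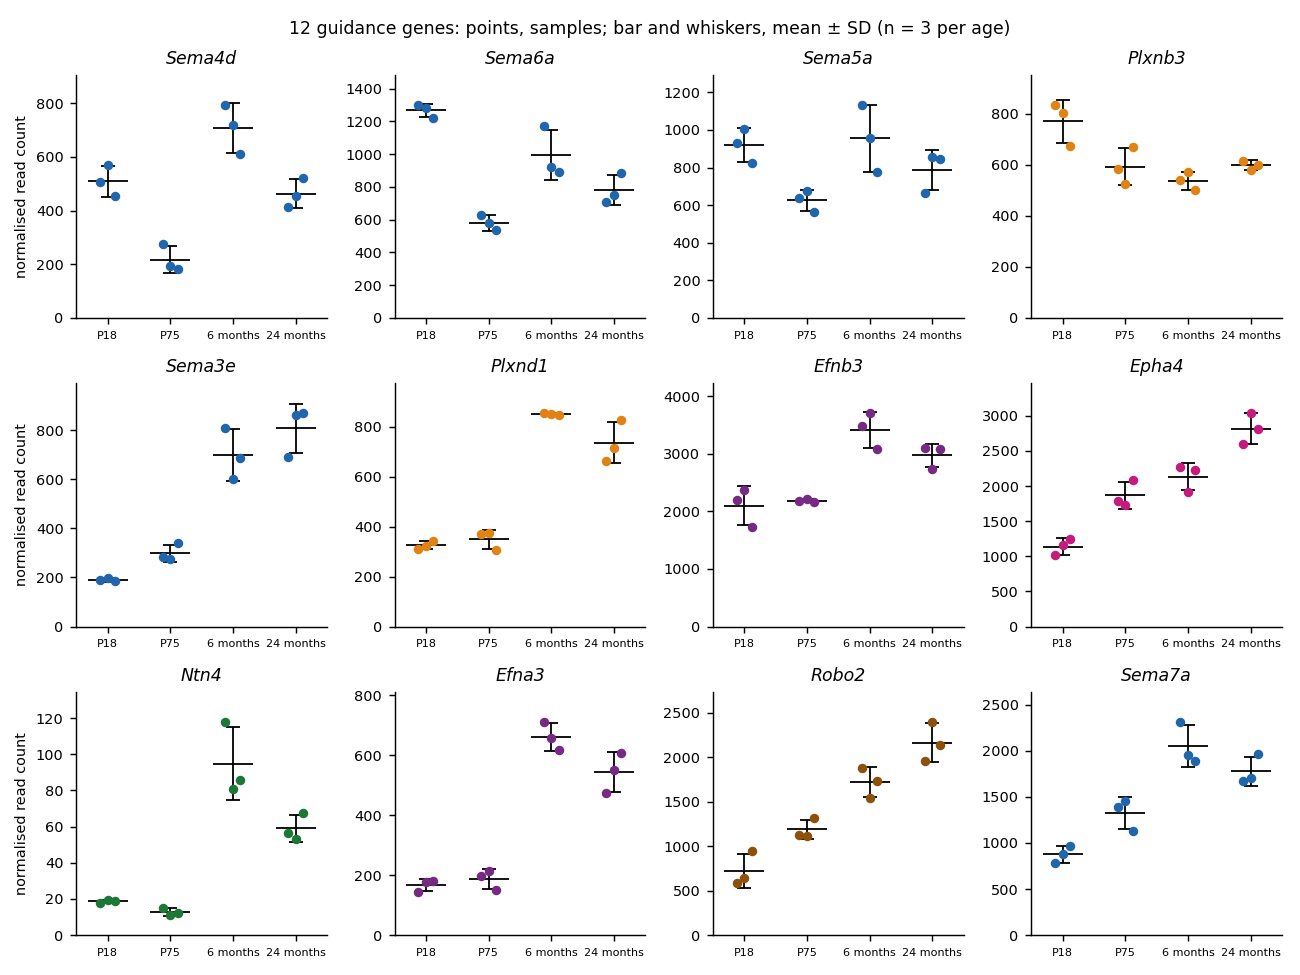
Normalised read counts of 12 guidance genes by age, with points for the 3 samples of each age and bars for the mean ± SD. Sema4d, Sema6a and Sema5a dip at P75, Plxnb3 is highest at P18, and the other 8 genes are higher at 6 and 24 months than at P18.

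The plexins and neuropilins, the receptors of semaphorins, rose in 8 and fell in 1 of 11 cases at P75. Those are 72.7% and 9.09%, beside 21.7% and 18.7% of all genes. At 6 months 7 rose (63.6%), beside 27.1%. At 24 months against P18, 10 were higher and 1 lower (90.9% and 9.09%), beside 32% and 30.5%. Nrp1, a co-receptor of class 3 semaphorins, had 539, 515 and 504 normalised reads at P18, 729, 739 and 693 at P75, 946, 807 and 838 at 6 months, and 866, 1083 and 1188 at 24 months. For Nrp2, its relative, the values were 144, 163 and 136 normalised reads at P18, 207, 205 and 195 at P75, 448, 329 and 314 at 6 months, and 275, 315 and 355 at 24 months. Both rose at P75, Nrp1 by 0.47 ± 0.11 (adjusted p = 0.00212) and Nrp2 by 0.46 ± 0.14 (adjusted p = 0.0137), with no overlap with P18. Nrp1 at 6 months against P75 (adjusted p = 0.0496) lost its call in 13 of 23 refits. Per kb, Nrp1 was higher than Nrp2 at each age, with 291 and 46.8 at 24 months.

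Plxnd1, the receptor of Sema3E (chromosome 6, 115954811 to 115995005, minus strand), had 311, 323 and 342 normalised reads at P18, 369, 376 and 306 at P75, 853, 850.3 and 847 at 6 months, and 665, 717 and 827 at 24 months. P18 and P75 overlapped, the 6-month samples lay within 7 normalised reads of each other and above both, and the rise at 6 months was 1.28 ± 0.10 (adjusted p = 1.46e-07). Plxnc1, the receptor of Sema7A, had 473, 444 and 543 normalised reads at P18, 806, 772 and 834 at P75, 1144, 973 and 1168 at 6 months, and 1049, 1414 and 1329 at 24 months. It rose by 0.73 ± 0.11 at P75 (adjusted p = 0.000117) and by 0.44 ± 0.11 at 6 months (adjusted p = 0.00391). Plxna3 showed the largest rise of the family at P75, 0.83 ± 0.13 (adjusted p = 0.000148), with 135, 169 and 191 normalised reads at P18, 318, 306 and 253 at P75, 323, 321 and 386 at 6 months, and 419, 435 and 479 at 24 months. Plxna4, a plexin through which Sema3A signals, had 424, 464 and 649.9 normalised reads at P18, 795, 753 and 600.3 at P75, 1208, 945 and 1002 at 6 months, and 796, 918 and 1099.7 at 24 months. It was higher at 24 months than at P18 by 0.88 ± 0.16 (adjusted p = 0.000127).

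Plxnb1, the receptor of Sema4D, had 1148, 1061 and 904 normalised reads at P18, 1297, 1402 and 1269 at P75, 1397, 1399.8 and 1283 at 6 months, and 1221, 1408 and 1370.0 at 24 months. It rose at P75 by 0.36 ± 0.09 (adjusted p = 0.00688), a call that was lost when the trend on transcript length was removed (adjusted p = 0.0673), and then stayed within an overlapping range. Plxna2 had 657, 789.8 and 1243 normalised reads at P18, 1388, 1388 and 1291 at P75, 1631, 1289.7 and 1393 at 6 months, and 1472, 1508 and 1637 at 24 months. P18 replicate 3 lay close to P75 and the other P18 samples well below it. The gene rose at P75 by 0.65 ± 0.16 (adjusted p = 0.00445).

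**Figure D4:**
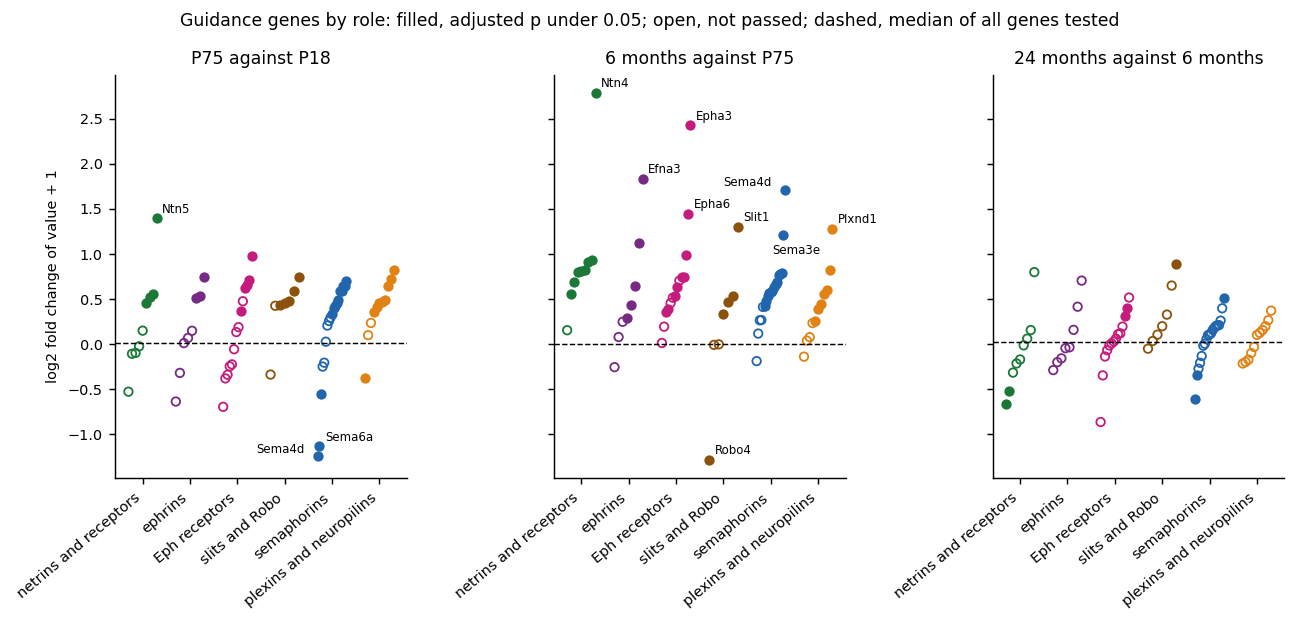
Log2 fold change of each guidance gene at the 3 consecutive steps in age, grouped by role, with filled points for adjusted p under 0.05, open points for genes that did not pass, and a dashed line at the median of all genes tested. Most points lie above the dashed line at P75 and at 6 months, and they scatter on both sides of it at 24 against 6 months.

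The ligand Sema5a and its receptor Plxnb3 both fell at P75, whereas the ligand Sema3e and its receptor Plxnd1 were high from 6 months on. The genes of a pair did not share the whole course. Sema5a rose at 6 months and Plxnb3 did not, and Sema3e rose at P75, where Plxnd1 had no call. The fall of Plxnb3 at P75 was not called without P75 replicate 2. The promoters of these 4 genes are shown to set their courses beside the sequence around each start site. The windows run from 250 bases before the start to 50 after it, from RefSeq on GRCm38.p6, and capitals mark matches on either strand to ACAAAG, the core recognised by SOX factors such as Sox10 of the oligodendrocyte lineage, and to CAGCTG, an E-box of the kind bound by Olig2 and other basic helix-loop-helix factors.
Sema5a, chr15:32244563-32244862, plus strand: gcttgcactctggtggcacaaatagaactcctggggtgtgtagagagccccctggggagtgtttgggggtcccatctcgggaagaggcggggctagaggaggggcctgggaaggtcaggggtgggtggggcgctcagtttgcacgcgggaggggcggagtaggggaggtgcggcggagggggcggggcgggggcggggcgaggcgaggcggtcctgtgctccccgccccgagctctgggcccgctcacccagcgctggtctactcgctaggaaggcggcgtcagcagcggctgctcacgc
Plxnb3, chrX:73756853-73757152, plus strand: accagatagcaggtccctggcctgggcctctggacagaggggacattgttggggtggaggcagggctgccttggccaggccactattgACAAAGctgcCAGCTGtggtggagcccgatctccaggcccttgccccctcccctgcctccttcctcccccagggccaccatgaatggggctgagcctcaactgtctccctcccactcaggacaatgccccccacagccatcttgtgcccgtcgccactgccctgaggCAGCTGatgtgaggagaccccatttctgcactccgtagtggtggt
Sema3e, chr5:14025026-14025325, plus strand: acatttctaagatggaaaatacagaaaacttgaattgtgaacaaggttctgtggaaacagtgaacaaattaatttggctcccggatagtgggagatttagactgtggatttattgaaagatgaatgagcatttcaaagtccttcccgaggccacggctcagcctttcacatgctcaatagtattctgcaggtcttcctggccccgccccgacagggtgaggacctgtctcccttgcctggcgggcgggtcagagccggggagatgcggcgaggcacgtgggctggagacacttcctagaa
Plxnd1, chr6:115994956-115995255, minus strand: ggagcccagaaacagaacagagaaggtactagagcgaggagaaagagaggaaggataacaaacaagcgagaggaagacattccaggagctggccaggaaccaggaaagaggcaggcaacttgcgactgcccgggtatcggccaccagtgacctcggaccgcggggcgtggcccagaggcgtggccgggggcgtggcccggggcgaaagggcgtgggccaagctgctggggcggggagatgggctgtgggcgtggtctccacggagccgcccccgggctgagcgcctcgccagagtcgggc
Only the Plxnb3 window of these 4 held a match, 1 to ACAAAG and 2 to CAGCTG. Of 32851 RefSeq promoter windows of this length, 18.7% held ACAAAG and 16.3% held CAGCTG. Of the 77 windows of the 61 members with an entry, 11 and 12 did. The Plxnb3 window also had few CpG dinucleotides, 4, against 23 for Sema5a, 23 for Plxnd1 and 11 for Sema3e and a median of 7 over all windows. A match describes these letters and is not a binding site, and the lack of a match bears only on these windows.

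Slits, the secreted repellents, and their Robo receptors rose in 5 of 7 cases at P75 (71.4%, beside 21.7% of all genes). That count was 3 without P18 replicate 1 or 2 or P75 replicate 1 or 2, with quantile normalization and with these ages fitted alone, since Slit1 and Slit3 no longer passed. Slit1 at P75 (0.48 ± 0.18, adjusted p = 0.0429) lost its call in 15 of 23 refits, edgeR (adjusted p = 0.0901) and DESeq2 (0.0663) among them, with adjusted p 0.00145 to 0.221 over all of them. At 6 months 4 rose and 1 fell (57.1% and 14.3%), beside 27.1% and 25.4% of all genes. At 24 months 6 were higher and 1 was lower than at P18 (85.7% and 14.3%), beside 32% and 30.5%. Robo2 had 582, 644 and 940.1 normalised reads at P18, 1129, 1116 and 1316 at P75, 1882, 1545 and 1734 at 6 months, and 1958, 2394 and 2133 at 24 months. P18, P75 and 6 months did not overlap, and neither did 24 months and 6 months, and the log2 fold change over the whole span was 1.61 ± 0.14 (adjusted p = 6.44e-08). Robo1, with 418, 418 and 438 normalised reads at P18, 545, 521 and 662 at P75, 919, 718 and 756 at 6 months, and 745, 886 and 944 at 24 months, rose by 0.43 ± 0.12 at P75 (adjusted p = 0.00755) and by 0.47 ± 0.12 at 6 months (adjusted p = 0.00311).

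Among the ligands, Slit1 had 62.98, 81.3 and 116 normalised reads at P18, 112, 124 and 117 at P75, 294, 284 and 299.7 at 6 months, and 226, 299.5 and 334 at 24 months. It rose at 6 months by 1.31 ± 0.18 (adjusted p = 2.15e-05), with no overlap with P75. Slit2 had 169.9, 163 and 177 normalised reads at P18, 254, 269 and 245 at P75, 383, 280.5 and 316 at 6 months, and 338, 390.3 and 392 at 24 months. The rise at P75 was 0.59 ± 0.12 (adjusted p = 0.000866). Slit3 had means of 153 ± 12.7 at 24 months and 110.4 ± 28.9 at P18 (SD, n = 3 each). Robo4, the receptor of this family typical of endothelium, had 33.3, 30.5 and 35.2 normalised reads at P18, 20.04, 22.2 and 38.7 at P75, 9.75, 15.1 and 6.81 at 6 months, and 16.8, 21.6 and 20.4 at 24 months. It was the member that fell at 6 months, by -1.28 ± 0.30 (adjusted p = 0.00194), and with a mean of 22.5 normalised reads it was named after its values were seen. Its call at 24 months against P18 (-0.73 ± 0.30, adjusted p = 0.0442) was lost without P18 replicate 1, 2 or 3, P75 replicate 2, 6 months replicate 1 or 24 months replicate 1, 2 or 3 (adjusted p 0.0507 to 0.124), and also with no filter on low values (0.058) and with DESeq2 (0.0534). Of 14 endothelial markers, 3 were higher and 2 lower at 6 months against P75, with a sum of 2158 to 2382 at 6 months and 2279.8 to 3032 at P75. Robo3 and Robo4 lie with their 3′ ends facing each other on chromosome 9 (37415669 to 37433246, minus strand, and 37401897 to 37415115, plus strand), and Robo3 had no call at that step (-0.01, adjusted p = 0.986).

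At 24 against 6 months the calls were few, and all but that of Unc50 depended on which samples were included, and 4 of them also on other settings. The 5 members that rose were Sema3c (0.51 ± 0.13, adjusted p = 0.0134), Epha4 (0.40 ± 0.10, adjusted p = 0.0148), Epha7 (0.32 ± 0.10, adjusted p = 0.0388), Robo4 (0.89 ± 0.30, adjusted p = 0.0473) and Unc50 (0.44 ± 0.08, adjusted p = 0.00298). The 4 that fell were Sema4d (-0.61 ± 0.15, adjusted p = 0.0114), Ntn4 (-0.66 ± 0.21, adjusted p = 0.036), Unc5b (-0.51 ± 0.16, adjusted p = 0.0332) and Sema6a (-0.34 ± 0.11, adjusted p = 0.0393). Sema4d thus fell at both P75 and 24 months and rose between them, and no 24-month sample reached the lowest 6-month sample. Without 6 months replicate 1 or 24 months replicate 1, Sema4d no longer passed (adjusted p = 0.0634 and 0.0546).

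Sema3c did not pass without 6 months replicate 2 or 24 months replicate 2 (adjusted p = 0.0643 and 0.0728), and neither did Epha4 without the same samples (0.076 and 0.0771). Epha7 was lost without any 1 of the 6 samples compared (adjusted p 0.0507 to 0.149), and Robo4 without P18 replicate 1 or 2, P75 replicate 2, 6 months replicate 1 or 3 or 24 months replicate 1, 2 or 3 (0.0534 to 0.166). Robo4 was also lost with edgeR (0.0669), DESeq2 (0.0914), quantile normalization (0.143), no filter (0.064), a pseudocount of 5 (0.0533) and these ages fitted alone (0.0533). Ntn4 was lost without any sample of 6 months or without 24 months replicate 1 or 2 (0.054 to 0.177), and Sema6a and Unc5b without replicate 1 or 2 of either age (0.059 to 0.195 for Sema6a and 0.0802 to 0.138 for Unc5b). With no filter Ntn4 did not pass (0.0558), nor did Sema6a (0.0626) and Unc5b (0.0549) with the length trend removed. The count of members higher was 11 without P18 replicate 3, 3 without 6 months replicate 1 or 24 months replicate 3, 2 without 6 months replicate 2 and 1 without 24 months replicate 2. The count lower was 0 without 6 months replicate 1 or 24 months replicate 1 and 1 without 6 months replicate 2 or 24 months replicate 2.

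Other genes of the pathway were read from 2 lists. Of 25 tested co-receptors and related cues, 11 rose and 1 fell at P75 (44% and 4%), beside 21.7% and 18.7% of all genes. At 6 months 22 rose (88%), beside 27.1% of all genes. At 24 against 6 months 2 fell (8%), beside 8.34%. At 24 months 23 were higher than at P18 (92%), beside 32%. The median log2 fold change of the list was 0.31, 0.74, -0.04 and 0.91 in these comparisons. Ntng1, a netrin-like protein with a lipid anchor, and Cntn2, an adhesion protein of axons and myelin, rose most firmly at P75, by 0.92 ± 0.10 (adjusted p = 3.66e-06) and 0.84 ± 0.13 (adjusted p = 8.21e-05). Neo1, the receptor shared by netrins and repulsive guidance molecules, averaged 1813 ± 227 at 6 months and 1073 ± 45.9 at P75, and rose with its ligands Rgma (0.86 ± 0.10, adjusted p = 4.79e-06) and Rgmb (1.35 ± 0.14, adjusted p = 1.96e-06). Rgma and Rgmb were also the 2 that fell at 24 months, by 0.41 ± 0.10 (adjusted p = 0.0119) and 0.66 ± 0.14 (adjusted p = 0.00656), and 1 of them passed without 6 months replicate 1, 24 months replicate 1 or 24 months replicate 2. Islr2 was the gene that fell at P75 (-0.76, adjusted p = 0.000454), and 2 fell without P18 replicate 1 or P75 replicate 2, with TMM scaling, with quantile normalization and with the filter at 50. Rtn4, which encodes the axon growth inhibitor Nogo, averaged 21575 ± 1436 at 24 months and 8482 ± 464 at P18.

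Effectors of guidance receptors, intracellular but for the surface protease Adam10, formed the other list. Of 50 tested, 3 rose and 28 fell at P75 (6% and 56%), beside 21.7% and 18.7% of all genes. At 6 months 19 rose and 4 fell (38% and 8%), beside 27.1% and 25.4%. At 24 against 6 months 2 rose and 16 fell (4% and 32%), beside 10.8% and 8.34%. At 24 months 5 were higher and 26 lower than at P18 (10% and 52%), beside 32% and 30.5%. The effectors' median log2 fold change was -0.37 at P75 against P18 and 0.08 at 6 months against P75. It was -0.23 at 24 against 6 months and -0.26 at 24 months against P18. Fyn, a kinase downstream of netrin and ephrin receptors that promotes myelination, averaged 2907 ± 209 at P75 and 5807 ± 72.2 at P18 and fell by 1.001 ± 0.08 on the log2 scale (adjusted p = 2.18e-07). Gipc1, an adaptor of neuropilin-1 and Sema4C, Rnd1, a GTPase that binds plexins, and Dpysl5, a collapsin response mediator protein, fell at the same step by 0.91 ± 0.09 (adjusted p = 1.42e-06), 1.08 ± 0.11 (adjusted p = 2.73e-06) and 1.15 ± 0.14 (adjusted p = 1.02e-05). The 3 that rose were Adam10, a protease that sheds ephrins (0.65), Rasa1 (0.43) and Vav3 (0.30).

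At 6 months Pak1, a kinase activated by Rac, rose by 0.62 ± 0.08 (adjusted p = 9.15e-06) and Enah, an actin regulator, by 0.73 ± 0.09 (adjusted p = 1.02e-05). The 4 effectors that fell then were Rras, Cdk5, Nck2 and Farp1 (log2 fold changes of -0.92, -0.32, -0.31 and -0.27). With the length trend removed 13 fell, and 2 were higher at 24 months than at P18. At 24 against 6 months Adam10 and Fes rose (0.30 and 0.60), and the 16 that fell were 4 without 6 months replicate 1, 10 without 6 months replicate 2 and 7 without either 24 months replicate 1 or 24 months replicate 2. The 2 higher became 1 without 6 months replicate 2, and did not pass without 6 months replicate 1, 24 months replicate 2 or 24 months replicate 3. The 5 higher at 24 months than at P18 were Adam10, Sipa1l1, Fes, Trio and Rasa1 (1.25, 0.48, 0.38, 0.33 and 0.33), and 3 passed without P18 replicate 1 or 24 months replicate 3 and 2 without 24 months replicate 2.

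**Figure D5:**
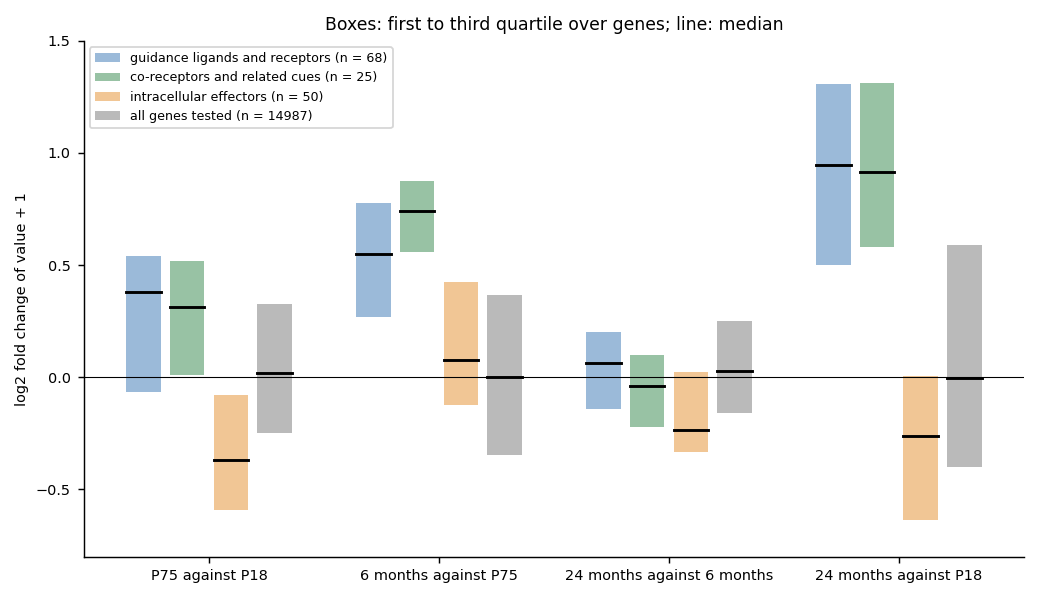
Log2 fold changes of 4 sets of genes in the 4 comparisons, with boxes from the first to the third quartile over genes and a line at the median. The medians of the guidance ligands and receptors and of the co-receptors lie above that of all genes at P75 and 6 months. At P75 the lower ends of these 2 boxes reach below the median of all genes, and the box of the effectors lies below it.

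The 2 genes caught by symbol alone were also read apart. Unc50 had 765, 755 and 879.9 normalised reads at P18, 1151, 1190.5 and 1333 at P75, 1249.5, 1259 and 1274 at 6 months, and 1714, 1717 and 1707 at 24 months. It rose at P75 by 0.61 ± 0.08 (adjusted p = 3.33e-05). Its rise at 24 against 6 months was the only member call of that step kept in every refit (adjusted p at most 0.022). Unc5cl had 0 to 3.71 and was not tested. Without both, 35 members rose and 4 fell at P75 (51.5% and 5.88%), beside 21.7% and 18.7% of all genes. At 6 months 47 rose and 1 fell (69.1% and 1.47%), beside 27.1% and 25.4%. At 24 against 6 months 4 rose and 4 fell (5.88% each), beside 10.8% and 8.34%. At 24 months 55 were higher and 3 lower than at P18 (80.9% and 4.41%), beside 32% and 30.5%. Ephs, ephrins, plexins and semaphorins are families of related sequence, and reads that fit several members may have been dropped or split in the counting. Exons shared with another gene of the table covered 236 bases of Epha1, which overlaps Zyx, and under 3% of the transcript length of Ephb4, Nrp1, Ntn3 and Unc5a.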

How the data were processed

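RNA sequencing of the myelin-enriched fraction gave 12 samples, 3 per age. The deposited values are signal: read counts of genes, divided by the authors by a factor for each sample. The submitters' processing notes name TopHat, HTSeq, DESeq and the build mm9, with no versions. Whole reads were recovered from the step between values in a column, of which 100% of values were multiples within 0.0061 (3 columns had a step within 1% of 1). Strand setting, RNA extraction and batches are not given in the sources used here.

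Tested were the 14987 genes, 69 members among them, with values of at least 10 in 3 or more samples. Values were analysed as log2(value + 1), which understates fold changes of low genes, with limma 3.58.1 (R 4.3.3), a mean-variance trend and all 12 samples in 4 age groups. P-values are two-sided and Benjamini-Hochberg adjusted over all genes tested, with a threshold of 0.05; ± beside a log2 fold change is its SE. Comparisons share samples. The fit was tested on simulated data. Lengths, positions and exon overlaps are from GENCODE vM21 (GRCm38), matched by symbol, and promoters from RefSeq; both differ from the authors' build, so no read was placed with them.

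Members, lists and tests were chosen with earlier results of these data known. Named were, per comparison, up to 8 members with the largest rise and fall that passed, did not overlap between ages and had a mean of at least 50; the 3 most abundant of each role; a fixed set described in oligodendrocytes; and up to 4 genes per pathway list with the lowest adjusted p (42 members). A result for 1 effector at 6 months is not reported here. Alternatives were other pseudocounts (0.5 and 5), filters (none, and 50), scalings (TMM, quantile), removal of the length trend, edgeR 4.0.16 and DESeq2 1.42.0 on the recovered reads, the ages compared alone, a replicate block and leaving out each sample. Alternatives for the pathway lists were added after seeing the data.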

Additional observations from a re-analysis of the deposited data

How the results depend on the processing

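Of 156 member differences past the threshold, none changed sign in any refit and 33 lost the call in at least 1, in 186 of 3582 refits; among the 120 that had not passed, 36 changed sign in at least 1 refit. The number of members higher was 29 to 36 at P75 against P18, 40 to 49 at 6 months against P75 and 53 to 57 at 24 months against P18 over all alternatives, and 60 to 65 differed at some age. Leaving out each sample gave 1 to 2 members lower at 6 months against P75 (2 without P75 replicate 3), 1 to 11 higher and 0 to 5 lower at 24 against 6 months. The single fall at 6 months was Robo4, which a filter at 50 removed (0 lower), and removal of the length trend gave 3 lower there and 2 lower at 24 against 6 months. With only those 2 ages fitted, 10 members were higher at 24 against 6 months; the cause was not tested. Quantile normalization moved the median of all genes to -0.11 at 24 months against P18, where the members' median was 0.83, or 0.94 above it. Deviations of same-numbered samples had correlations of -0.185 to 0.165, with 3 of 18 over 0.1. Between P75 and 6 months they were 0.147, 0.0934 and 0.165 for replicates 1, 2 and 3. Such correlations cannot show whether the numbers pair samples. With the replicate block, members higher and lower were 35 and 4 at P75, 46 and 1 at 6 months, 4 and 4 at 24 against 6 months, and 56 and 2 at 24 months against P18, and 63 differed at some age; Robo4 was not called in either comparison of 24 months (adjusted p = 0.0557 against P18 and 0.0619 against 6 months). Depth limits the members with values near 10, among them Efna4, Epha2, Epha10, Robo4 and Ntn5.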
